A study of Homo sapiens with 9 samples.

Results

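The SPARC family comprises secreted, calcium-binding glycoproteins of the extracellular matrix that share a follistatin-like domain. Its members were taken by gene name: SPARC, SPARCL1, SPOCK1, SPOCK2, SPOCK3, SMOC1, SMOC2 and FSTL1, 8 genes of 36225 in the expression table, each with its own row. Their transcripts were sequenced from poly(A) RNA of RBE, an established human cell line from a tumour of the intrahepatic bile ducts (cholangiocarcinoma), which the series title places in the context of mutant IDH1, JOSD2 and YAP/TAZ. All 9 cultures had received lentivirus: 3 carried a scramble hairpin (control), 3 a hairpin against IDH1 (shIDH1) and 3 a hairpin against JOSD2 (shJOSD2). The labels name a single hairpin per target and leave unsaid if replicates are independent infections. The p-values thus reflect library-to-library spread alone, possibly technical. The family was chosen by gene name with the measured SPARC values of shIDH1 and control libraries already known. Values of the members in shIDH1 against control are therefore described and not tested, and so is SPARC in every comparison, since each one uses SPARC values known at the choice.

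Matricellular proteins are matrix proteins that regulate how cells attach, migrate and respond to growth factors more than they build the matrix scaffold. SPARC, also called osteonectin, binds collagens and is abundant in bone and in the stroma of many tumours, and SPARCL1, or hevin, is its closest relative. SMOC1 and SMOC2 are modular calcium-binding proteins that act in BMP signalling, SPOCK1 to SPOCK3 encode the testican proteoglycans, and FSTL1 is a more distant member that binds BMP ligands.

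The libraries held between 66036276 and 71612713 deposited counts. Some low counts gathered at multiples of 4, with 10737 values of 4 against 5505 of 3 and 3780 of 5. Values of 1 and 2 were also frequent, at 9771 and 8761, so a unit of about 4 counts per sequenced fragment is uncertain. It is used below as a working value. IDH1 lay between 12.3 and 13.1 FPKM (fragments scaled to transcript length and sequencing depth) in shIDH1 libraries against 38.9 to 47.4 in control, and JOSD2 between 0.708 and 0.906 in shJOSD2 libraries against 6.15 to 6.66 in control. JOSD2 was also low in shIDH1 libraries, at 1.51 to 1.85 FPKM, so both hairpin groups had less JOSD2 transcript. IDH1 in shJOSD2 libraries, at 32.7 to 35.5 FPKM, also lay below the control range. FPKM values and the fitted changes differ slightly in scale: without composition (TMM) scaling, the median log2 change of all tested genes in shJOSD2 against control was 0.18, against 0.03 with it. Fitted log2 changes below come from edgeR with that scaling.

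The sequence before the transcript start was available in RefSeq (GRCh38.p14) for 7 of the 8 members, SPOCK1 being the exception, with 10 start sites. The 250 bases before 4 of these starts are shown because they belong to the member that differed most between groups (SPARC), to members called in shJOSD2 cells (SMOC1 and SPOCK2), and to a member not called there (FSTL1). Letters run 5′ to 3′ on the gene's own strand, and capitals mark matches to the motifs named below. The windows are chr5:151686916-151687165 (minus strand) for SPARC, chr14:69879166-69879415 (plus strand) for SMOC1, chr10:72089033-72089282 (minus strand) for the outer start of SPOCK2 and chr3:120450993-120451242 (minus strand) for FSTL1.
SPARC: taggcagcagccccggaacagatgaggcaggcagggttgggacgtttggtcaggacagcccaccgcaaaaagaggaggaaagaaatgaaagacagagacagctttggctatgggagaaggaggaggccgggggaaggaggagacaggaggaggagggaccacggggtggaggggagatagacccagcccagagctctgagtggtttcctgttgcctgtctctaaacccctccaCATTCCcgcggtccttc
SMOC1: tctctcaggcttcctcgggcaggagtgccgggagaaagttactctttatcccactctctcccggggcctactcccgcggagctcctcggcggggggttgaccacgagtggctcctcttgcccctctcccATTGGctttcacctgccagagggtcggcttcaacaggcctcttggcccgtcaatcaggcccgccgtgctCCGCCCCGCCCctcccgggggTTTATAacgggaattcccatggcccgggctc
SPOCK2: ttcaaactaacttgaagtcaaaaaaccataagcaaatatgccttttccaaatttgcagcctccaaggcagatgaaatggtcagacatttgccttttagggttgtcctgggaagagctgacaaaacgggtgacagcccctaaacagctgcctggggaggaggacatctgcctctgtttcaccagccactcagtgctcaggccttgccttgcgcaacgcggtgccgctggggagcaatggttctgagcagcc
FSTL1: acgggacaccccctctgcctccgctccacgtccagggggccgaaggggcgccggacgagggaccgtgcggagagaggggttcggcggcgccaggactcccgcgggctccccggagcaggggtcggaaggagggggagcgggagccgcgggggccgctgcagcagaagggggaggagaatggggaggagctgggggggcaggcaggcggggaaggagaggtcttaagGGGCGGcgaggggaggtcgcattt

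Each window was searched on both strands for 5 motifs. GGAATG is the core of the site that TEAD factors, the DNA-binding partners of YAP and TAZ, recognise, and its reverse complement reads CATTCC. The letters TGANTCA stand for an AP-1 site and TATAAA for a TATA box. A GC box was searched as GGGCGG, and the last motif was CCAAT. Matches of different motifs did not overlap. The SPARC window held 1 match, a CATTCC between 17 and 12 bases before the start. A TEAD core lies in 11.9% of the 34943 RefSeq windows of this length, and SPARC was the member whose window held one. SMOC1 had the TATA box letters on the opposite strand, 31 to 26 bases before its start, a motif found in 10.8% of all windows, together with a CCAAT match and GC boxes that overlap by 1 base, also on the opposite strand. FSTL1 held a GC box 24 to 19 bases before its start, as 42.5% of all windows hold at least 1, and SMOC2 held a pair of them. Neither SPOCK2 window and none of the 3 SPOCK3 windows matched any of the 5 motifs, and no member window held the AP-1 letters, which 6.59% of all windows do. CpG content varied between windows, also between starts of the same gene. The SPARC window had 7 CpG dinucleotides and the SPARCL1 window 1, against 17 for SMOC1 and 24 each for FSTL1 and SMOC2. The outer SPOCK2 start had 5 and the other 11, and the 3 SPOCK3 windows had 10, 20 and 21. The median over all windows was 11. The RefSeq start of SPARC lies 60 bases inside the gene span given in the table, that of SMOC1 25285 bases inside it, and those of FSTL1 and the outer SPOCK2 start coincide with its end. Such matches describe letters and do not show binding.

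**Figure D1:**
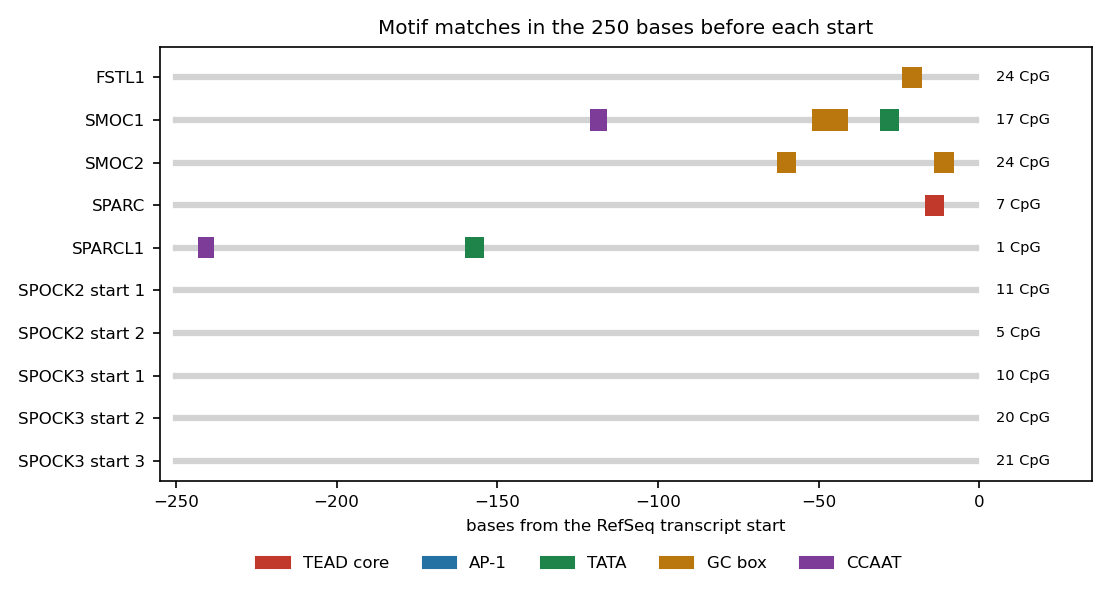
Positions of motif matches in the 250 bases before each RefSeq transcript start (x axis, bases from the start), with 1 row per start site and the number of CpG dinucleotides at the right. The single TEAD core lies next to the SPARC start, and the 5 SPOCK2 and SPOCK3 windows are empty.

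SPARC (ENSG00000113140; GRCh38 chromosome 5, 151661096 to 151686975, minus strand) encodes the collagen-binding founder of the family. Its level was 0.980, 0.612 and 0.707 FPKM in control replicates 1, 2 and 3, which rested on 334, 206 and 234 counts. In shIDH1 libraries it stood at 23.0, 25.7 and 27.1 FPKM, on 7686, 8442 and 9415 counts. In shJOSD2 libraries it stood at 1.31, 1.61 and 1.46 FPKM, on 444, 524 and 469 counts. The 3 groups did not overlap: every shIDH1 library lay far above all others, and every shJOSD2 library above every control library. Group means were 0.766 ± 0.191, 25.3 ± 2.10 and 1.46 ± 0.152 FPKM (SD, n = 3 each) for control, shIDH1 and shJOSD2.

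Among 21492 tested genes, SPARC ranked between 12171 and 13276 by FPKM in control libraries, between 11072 and 11725 in shJOSD2 libraries and between 1293 and 1611 in shIDH1 libraries. The mean FPKM in shIDH1 was 33.0-fold that of control and 17.3-fold that of shJOSD2, with fitted log2 differences of 5.03 ± 0.15 and 4.26 ± 0.14 (SE). Against control replicate 1 alone, the control library with the most SPARC, the first of these was 4.71. In shJOSD2 against control the fitted log2 difference was 0.77 ± 0.14 (SE), with all 3 shJOSD2 libraries above the control range. Against control replicate 1 alone it was 0.45. In bulk RNA, more cells with the transcript and more transcript per cell cannot be told apart. The table's CLMAT3, a gene on the opposite strand that overlaps SPARC, had 0 to 5 counts per library.

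SPARCL1 (ENSG00000152583; chromosome 4, 87473335 to 87531049, minus strand), the nearest relative of SPARC, was almost unmeasured. It was listed at 0 counts in all 3 control libraries, at 0, 8 and 0 in shIDH1 and at 4, 4 and 0 in shJOSD2 replicates 1, 2 and 3. At about 4 counts per fragment these would be 1 or 2 fragments in a library, and no difference was detectable at this depth. With that uncertain unit, a count of 0 allows up to 12 counts, about 3 fragments, for counting error only. Those 12 counts are 0.168 to 0.182 CPM (counts scaled to library size) over the 9 libraries. SPARCL1 did not pass the filter on low counts and was not tested.

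SMOC1 (ENSG00000198732; chromosome 14, 69854131 to 70032366, plus strand), a secreted modulator of BMP signalling, had its highest level in shJOSD2 cells. It stood at 0.312, 0.337 and 0.286 FPKM in control replicates 1 to 3 and at 0.339, 0.436 and 0.222 in shIDH1 replicates 1 to 3. In shJOSD2 libraries it stood at 0.653, 0.780 and 0.725 FPKM, on 209, 239 and 220 counts. All shJOSD2 libraries lay above all other libraries, while the shIDH1 range enclosed the control range. SMOC1 rose by 1.05 ± 0.25 on the log2 scale in shJOSD2 cells against control (edgeR, Benjamini-Hochberg adjusted p = 0.00550), a fitted 2.07-fold. By mean FPKM, without TMM scaling, SMOC1 rose 2.31-fold. Its level in shIDH1 cells was lower than in shJOSD2 cells by a log2 difference of -0.95 ± 0.25 (edgeR, Benjamini-Hochberg adjusted p = 0.00778). Set against control replicate 1 alone, the rise of 1.08 was no longer called (edgeR, Benjamini-Hochberg adjusted p = 0.0655), and the call between the hairpins remained under all 18 alternatives.

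RPL7AP6, a ribosomal protein pseudogene inside the SMOC1 span on the opposite strand, had 4105 to 5274 counts per library, against 74 to 239 for SMOC1. Its mean count was 4692, 4219 and 4999 in the control, shIDH1 and shJOSD2 groups. The strand setting of the counting is not given in the sources used here, and its part in the SMOC1 values was not tested. SMOC2 (ENSG00000112562; chromosome 6, 168441151 to 168673445, plus strand) had 0, 14 and 7 counts in control replicates 1 to 3 and was listed at 0 in the 6 knockdown libraries. Its 21 control counts amount to about 5 fragments, so it was neither tested nor compared.

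SPOCK1 (ENSG00000152377; chromosome 5, 136975298 to 137598379, minus strand), which encodes testican-1, was the most abundant member in control cells and the steadiest. It stood at 5.13, 4.75 and 5.07 FPKM in control, at 5.18, 4.37 and 3.90 in shIDH1 and at 4.88, 5.25 and 5.05 in shJOSD2 replicates 1 to 3. The 3 ranges overlapped. No difference was called in shJOSD2 against control (log2 change -0.13 ± 0.09, an interval of 2 SE from -0.30 to 0.05, edgeR, Benjamini-Hochberg adjusted p = 0.309), and the sign was positive without TMM scaling and on FPKM. Between the hairpins the log2 difference was -0.03 ± 0.09, with an interval of 2 SE from -0.21 to 0.15 (edgeR, Benjamini-Hochberg adjusted p = 0.819).

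SPOCK2 (ENSG00000107742; chromosome 10, 72059034 to 72089032, minus strand) encodes testican-2. It stood at 0.207, 0.105 and 0.169 FPKM in control replicates 1 to 3, on 97, 49 and 77 counts. The values were 0.250, 0.244 and 0.349 FPKM in shIDH1 and 0.451, 0.691 and 0.429 FPKM in shJOSD2 replicates 1 to 3. The groups formed separate steps, with control lowest, shIDH1 between and shJOSD2 highest. SPOCK2 rose by 1.57 ± 0.29 on the log2 scale in shJOSD2 against control (edgeR, Benjamini-Hochberg adjusted p = 0.00109), a fitted 2.96-fold. By mean FPKM, without TMM scaling, SPOCK2 rose 3.27-fold and was higher in 3 of 3 libraries. In shIDH1 against control the fitted log2 difference was 0.82 ± 0.29. The difference between the hairpins, -0.74 ± 0.29, narrowly missed the threshold (edgeR, Benjamini-Hochberg adjusted p = 0.0514) and was called under 8 of 18 alternatives, with adjusted p from 0.0181 to 0.251.

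SPOCK3 (ENSG00000196104; chromosome 4, 166733384 to 167234757, minus strand), the gene of testican-3, was higher in both knockdowns by about the same amount. It stood at 0.193, 0.170 and 0.254 FPKM in control replicates 1 to 3. It stood at 0.387, 0.492 and 0.353 FPKM in shIDH1 and at 0.501, 0.424 and 0.459 in shJOSD2 replicates 1 to 3. All 6 knockdown libraries lay above all 3 control libraries, and the knockdown groups overlapped each other. SPOCK3 rose by 1.02 ± 0.24 on the log2 scale in shJOSD2 against control (edgeR, Benjamini-Hochberg adjusted p = 0.00558), and the described log2 difference in shIDH1 against control was 1.003 ± 0.245 (SE). Between the hairpins the log2 difference was -0.01 ± 0.24 (edgeR, Benjamini-Hochberg adjusted p = 0.970), with an interval of 2 SE from -0.49 to 0.46 that leaves room for a difference of up to about that size.

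FSTL1 (ENSG00000163430; chromosome 3, 120392293 to 120450992, minus strand), a secreted binder of BMP ligands, moved little. It stood at 1.28, 0.843 and 1.20 FPKM in control, at 1.70, 1.46 and 1.28 in shIDH1 and at 1.05, 1.34 and 1.17 in shJOSD2 replicates 1 to 3. The shIDH1 libraries lay just above the control libraries, by a fitted log2 difference of 0.42 ± 0.16, and the shJOSD2 range overlapped both others. In shJOSD2 against control the log2 change was -0.04 ± 0.16, an interval of 2 SE from -0.36 to 0.27 (edgeR, Benjamini-Hochberg adjusted p = 0.866), with a positive sign without TMM scaling and on FPKM. FSTL1 was higher in shIDH1 than in shJOSD2 cells by 0.46 ± 0.16 (edgeR, Benjamini-Hochberg adjusted p = 0.0295) although the FPKM ranges overlapped. That call remained under 9 of 18 alternatives and was lost, among others, without shIDH1 replicate 1 or 2 or shJOSD2 replicate 1 or 3 (adjusted p = 0.114, 0.0659, 0.112 and 0.0792, edgeR with Benjamini-Hochberg adjustment) and without TMM scaling (edgeR, Benjamini-Hochberg adjusted p = 0.151).

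**Figure D2:**
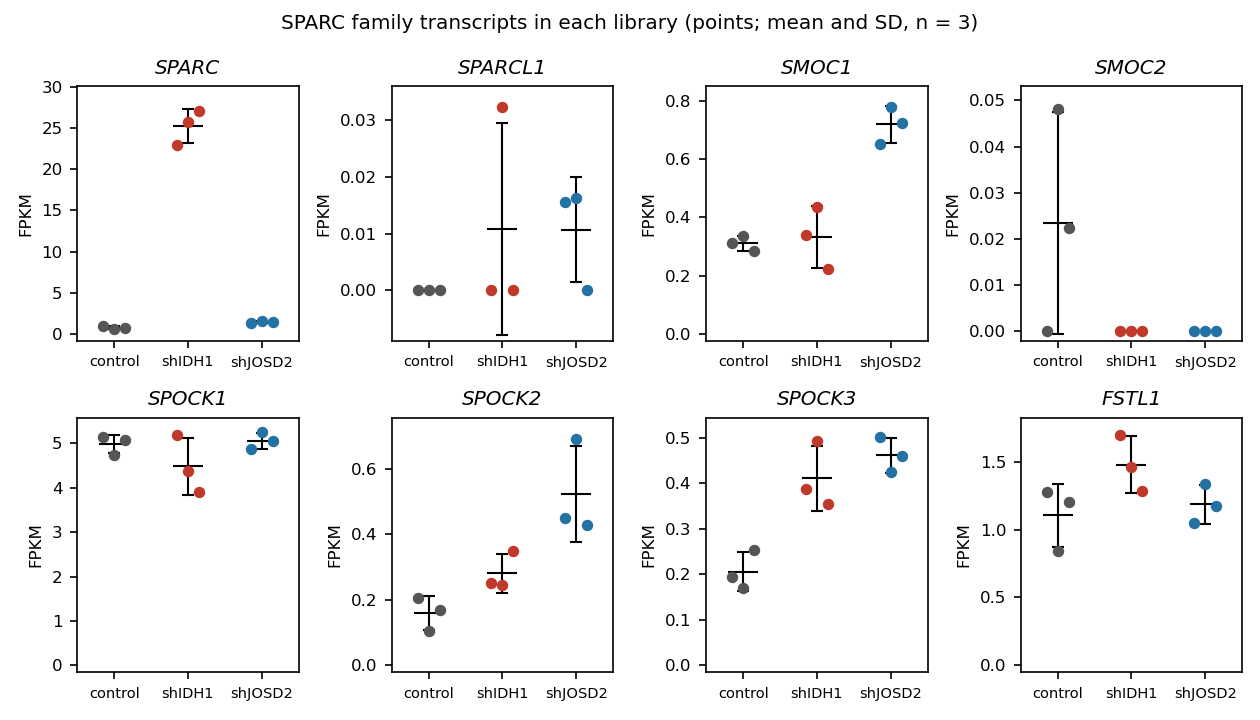
FPKM (y axis, a separate linear scale per panel) of the 8 members in the 9 libraries, 1 point per library in replicate order, with the group mean and SD (n = 3). SPARC is at 23.0 to 27.1 FPKM in shIDH1 and below 2 in the other groups, SMOC1 and SPOCK2 are highest in shJOSD2, and SPARCL1 and SMOC2 are at or near 0 throughout.

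Side by side, the order of the group means differed between groups. Between control and shJOSD2 it differed only among members whose ranges overlapped. In control cells SPOCK1 was followed by FSTL1 and SPARC, whose ranges overlapped, then by SMOC1, and by SPOCK3 and SPOCK2, whose ranges overlapped. In shIDH1 cells SPARC moved to the top, above SPOCK1 and FSTL1, and SPOCK3, SMOC1 and SPOCK2 followed with overlapping ranges. In shJOSD2 cells SPOCK1 led again, SPARC and FSTL1 overlapped, and so did SMOC1 and SPOCK2 and, in turn, SPOCK2 and SPOCK3. SPARC made up 8.92% to 12.1% of the summed FPKM of the 8 members in control libraries, 14.8% to 15.9% in shJOSD2 and 74.5% to 81.6% in shIDH1 libraries. The sum itself was 6.86 to 8.10 FPKM in control, 8.86 to 10.1 in shJOSD2 and 30.8 to 33.2 in shIDH1 libraries.

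Of the 8 members, 6 passed the filter on low counts, none of them with fewer than 49 counts in any library. In shJOSD2 against control, 3 of the 5 members other than SPARC were called higher (SMOC1, SPOCK2 and SPOCK3) and none lower by edgeR, where 38.3% of all tested genes were called, 18.2% higher and 20.1% lower. These 3 and SPARC had FPKM ranges above control, where 51.7% of tested genes had separate ranges, 34.2% being higher and 17.4% lower in shJOSD2. In shIDH1 against control, 4 of the 6 had FPKM ranges above those of control (SPARC, SPOCK2, SPOCK3 and FSTL1), as 28.6% of tested genes did; 28.3% had ranges below it, 56.9% had separate ranges in all, and edgeR called 50.1%, 24.5% higher and 25.6% lower. Between the hairpins, 2 of the 5 members other than SPARC were called, SMOC1 lower and FSTL1 higher in shIDH1, beside 44.8% of all tested genes, 20.8% higher and 24% lower. Ranges were separate and lower for SMOC1 and SPOCK2, beside 58.4% of tested genes with separate ranges, 37.7% lower and 20.7% higher in shIDH1. The comparisons with control share the same 3 control libraries, so the values of SPOCK2 and SPOCK3 in both are not independent of each other.

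**Figure D3:**
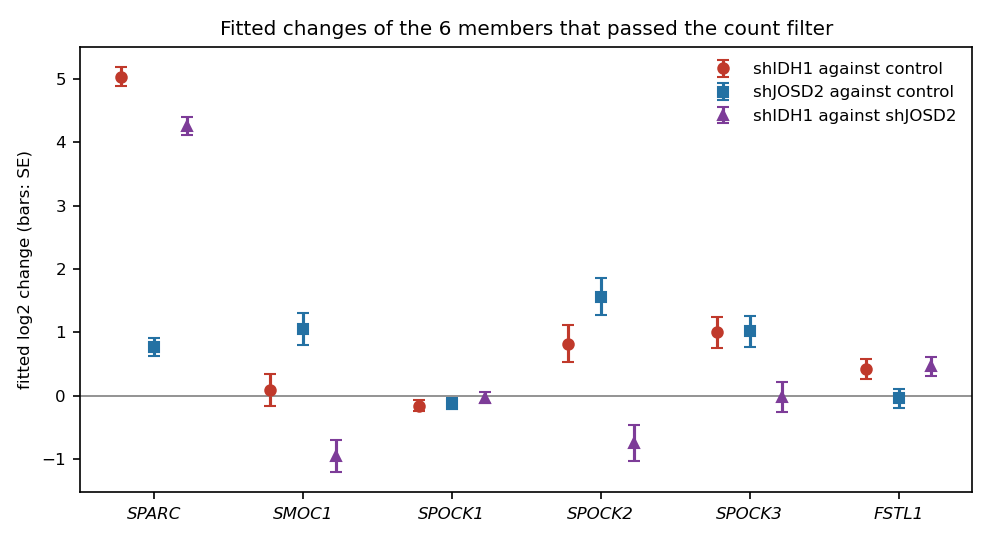
Fitted log2 changes (y axis, points with SE bars) of the 6 members that passed the count filter in the 3 comparisons. SPARC stands at 5.03 in shIDH1 against control, while the other members lie between -0.95 and 1.57 in every comparison.

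The family was then set beside 14 other matricellular genes that were tested, of 20 listed. This list and those that follow were chosen with earlier results of these data known, so their counts describe these libraries and are no independent support. In shIDH1 cells 12 of 14 were called higher and none lower against control, with a median log2 change of 1.72 against 0.01 over all tested genes, of which 24.5% were called higher and 25.6% lower. CCN2, a growth factor-binding matricellular protein and YAP/TAZ target, rose from 53.0 ± 8.56 to 397 ± 33.7 FPKM, by 2.91 ± 0.10 on the log2 scale. SPP1, or osteopontin, rose by 2.16 ± 0.10 and SRPX2, a secreted sushi-repeat protein, by 1.87 ± 0.12. In shJOSD2 cells 9 of 14 were called higher and none lower, beside 18.2% and 20.1% of all tested genes, with a median of 0.66. Without TMM scaling 11 were higher, where the calls over all genes also moved, to 5638 higher and 2934 lower. SRPX2 rose there by 1.44 ± 0.12, CCN3 by 1.26 ± 0.10, from 6.66 ± 0.770 to 17.7 ± 1.12 FPKM, and THBS3, a thrombospondin, by 0.97 ± 0.10. Between the hairpins 10 were higher in shIDH1 and 2 lower (median 0.66), beside 20.8% and 24% of all tested genes, with CCN2 higher by 2.57 ± 0.10, SPP1 by 1.61 ± 0.10 and CCN1 by 1.24 ± 0.06.

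Of 27 collagens, ligands, receptors and proteases listed as partners of family proteins, 25 were tested. In shIDH1 against control 17 rose and 3 fell, beside 24.5% higher and 25.6% lower among all tested genes, with a median log2 change of 1.09. The basement membrane collagen gene COL4A1 rose from 12.3 ± 1.20 to 58.8 ± 0.869 FPKM, by 2.25 ± 0.07, the ligand gene BMP2 by 2.42 ± 0.20, and the integrin gene ITGB3 by 1.61 ± 0.09. In shJOSD2 against control 8 rose and 5 fell, beside 18.2% higher and 20.1% lower among all tested genes, with a median of 0.25, and 11 rose and 5 fell without TMM scaling. ITGB3 rose by 1.17 ± 0.09 and the fibrillar collagen gene COL5A1 by 0.88 ± 0.09, while the growth factor gene PDGFA fell by 1.08 ± 0.14. Between the hairpins 17 were higher in shIDH1 and 3 lower, beside 20.8% and 24% of all tested genes, with a median of 0.58. MMP14, the membrane-anchored metalloproteinase, was higher in shIDH1 by 1.95 ± 0.07, at 125 ± 2.61 against 35.9 ± 1.46 FPKM, and COL4A1 by 2.22 ± 0.07.

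Of the genes outside the family with follistatin-like or Kazal-type domains, 3 of 9 tested rose in shIDH1 and 2 of 9 in shJOSD2 cells, and none fell. Those counts lie near the share of all tested genes called higher, 24.5% in shIDH1 and 18.2% in shJOSD2. RECK, a membrane-anchored protease inhibitor, rose in both, from 2.86 ± 0.299 FPKM in control to 15.4 ± 2.02 in shIDH1 and 8.94 ± 0.287 in shJOSD2. AGRN, the heparan sulfate proteoglycan agrin, rose by 1.12 ± 0.07 in shIDH1, and HTRA1, a secreted serine protease, by 0.61 ± 0.06 in shJOSD2. Between the hairpins 4 were higher in shIDH1 and 1, HTRA1, lower by a log2 difference of -0.67 ± 0.06, beside 20.8% and 24% of all tested genes, and 2 higher and 1 lower without TMM scaling. The list medians were 0.41, 0.00 and 0.18 in the 3 comparisons.

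**Figure D4:**
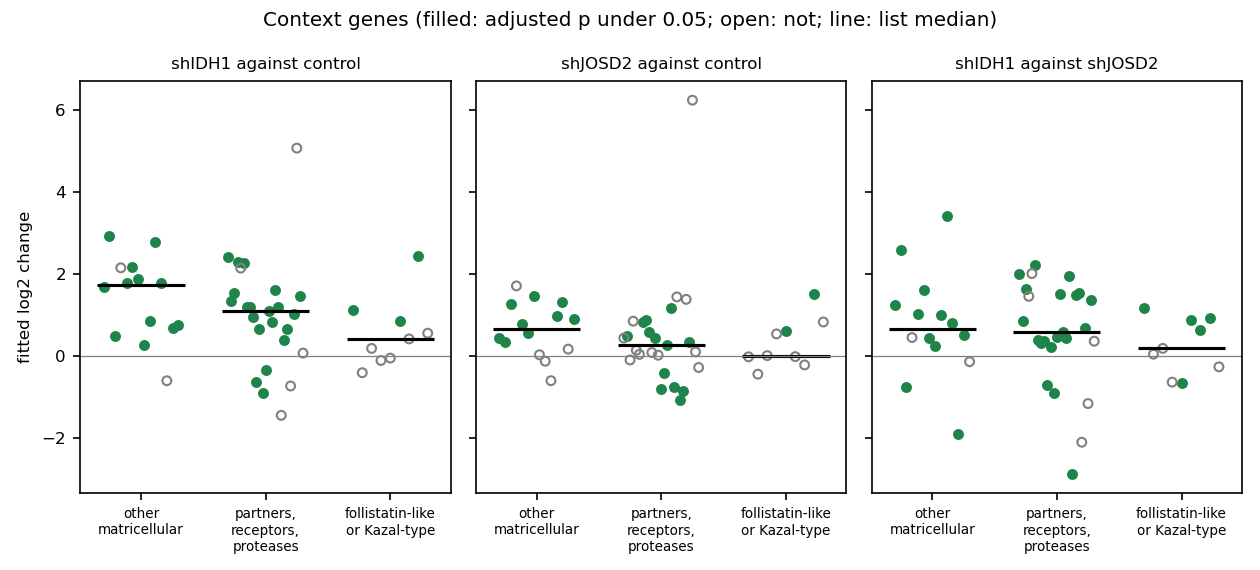
Fitted log2 changes (y axis) of the tested genes of the 3 lists in each comparison, filled where the adjusted p was under 0.05, with a line at the list median. The matricellular medians lie at 1.72, 0.66 and 0.66; the open point above 5 in the comparisons with control is VCAM1, listed at 0 in all control libraries, whose fitted change is no measured fold.

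The genes most like SPARC were ranked by the root mean square difference of their log2 CPM change from the control mean over the 6 knockdown libraries, among 13209 genes with at least 1 FPKM in a group mean. The nearest was ANKRD1, a YAP/TAZ target that encodes an ankyrin-repeat protein, at a difference of 0.48 log2 units, where the median gene lay at 3.67. It stood at 52.4 ± 7.10, 1166 ± 42.4 and 128 ± 4.08 FPKM in control, shIDH1 and shJOSD2. KCNJ16, a potassium channel gene, followed at 0.75, with 0.477 ± 0.202, 7.95 ± 1.20 and 1.13 ± 0.126 FPKM. FGB, a fibrinogen chain gene, followed at 0.85, with 1.70 ± 0.171, 42.9 ± 1.61 and 7.13 ± 0.187 FPKM. LINC00589 and UPB1 came next at 1.08 and 1.09, both below 0.2 FPKM in control. Within 1 log2 unit of SPARC lay 3 of the 13209 genes. SPARC moved by a fitted 5.03 in shIDH1, a rise known at the choice, so any little-changed gene lies far from it. In shJOSD2 the 5 genes changed by 1.15, 1.17, 1.92, 2.30 and 0.61, where SPARC libraries stood 0.65 to 0.94 above the control mean. The ranking describes likeness over libraries that fall into 3 groups.

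**Figure D5:**
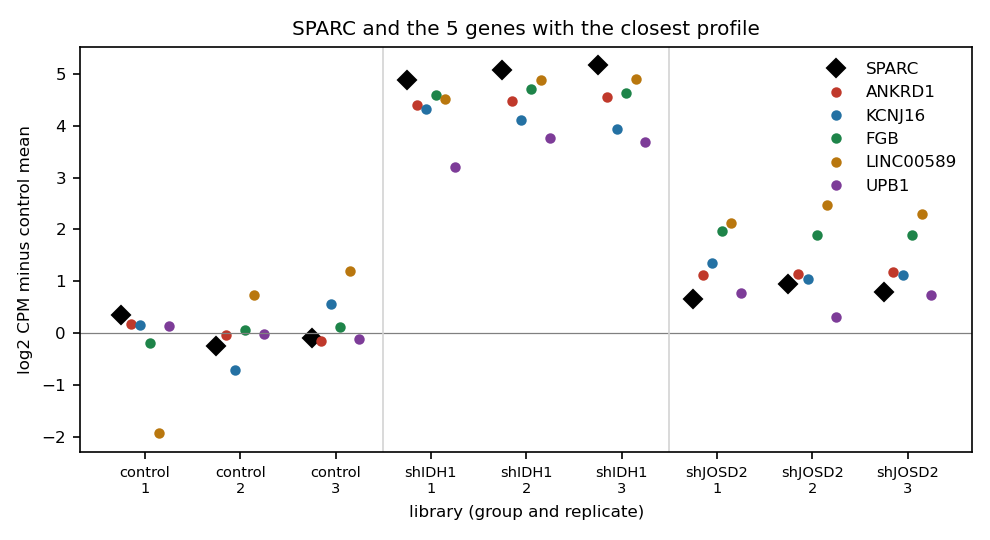
log2 CPM of SPARC (diamonds) and the 5 genes with the closest profile (circles), minus each gene's control mean, in the 9 libraries on the x axis. By group mean, all 6 genes stand highest in shIDH1 and between the other groups in shJOSD2; LINC00589 also spreads widely among the control libraries.

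Because SPARC is a stromal gene in many tissues, markers of other cells were read beside it. All 8 epithelial and biliary markers were above 1 FPKM in each group mean, with summed levels of 1590 to 1855 FPKM in control, 1838 to 1852 in shIDH1 and 1477 to 1527 in shJOSD2 libraries. The 8 fibroblast markers summed to 3.23 to 3.95 FPKM in control, 8.16 to 9.43 in shIDH1 and 6.26 to 6.46 in shJOSD2 libraries, carried mostly by COL1A1, PDGFRB and THY1. In control, shIDH1 and shJOSD2 the group mean of COL1A1 was 1.91, 5.54 and 1.96 FPKM, that of PDGFRB 0.441, 2.20 and 2.81, and that of THY1 1.09, 0.896 and 1.55. The low collagen markers were also highest in shIDH1, COL1A2 at 0.119 against 0.0237 FPKM in control and COL3A1 at 0.0231 to 0.0425 over the shIDH1 libraries against at most 0.0115 in control. DCN was listed at 0 in all control libraries and reached at most 0.00729 FPKM in shIDH1, LUM was listed at 0 in all knockdown libraries, and FAP stayed at or below 0.0228 FPKM in every library. The part of these markers in the SPARC values was not tested. The 7 endothelial markers summed to at most 1.17 FPKM in any library. TIE1, CDH5, KDR and EMCN had higher means in shIDH1 than in control, and PECAM1, VWF and CLDN5 lower ones. TIE1 was listed at 0 in all control libraries and lay at 0.107 to 0.203 FPKM in shIDH1. CDH5 had group means of 0.0187 in control and 0.114 in shIDH1. The part of the endothelial markers in the SPARC values was not tested either. The 7 leukocyte markers summed to 25.0 to 40.0 FPKM, most of it CD68, which many cells express in lysosomes. Of 3 nuclear-retained RNAs read as a sign of RNA quality, the sum was 21.1 to 29.2 FPKM in control. It was 35.5 to 37.0 in shIDH1 and 32.3 to 34.4 in shJOSD2 libraries, carried by MALAT1 and NEAT1. KCNQ1OT1 went the other way, with group means of 0.202 in control, 0.0978 in shIDH1 and 0.171 FPKM in shJOSD2. The part of these RNAs in the member values was not tested.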

How the data were processed

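Poly(A) RNA of 9 RBE libraries was sequenced as read pairs from strand-marked (dUTP) libraries whose adapters held molecular identifiers, per the labels' protocols. Tools listed in the submitters' processing notes are cutadapt 1.9, HISAT2 2.0.4, StringTie 1.3.4d and UMI-tools, and the build is GRCh38. Not given in the sources used here are the step each tool served, the gene annotation and how strand was handled in counting. The authors deposited whole-number counts per gene with no normalization, per the file headers, and FPKM scaled by gene length and depth, also deposited by the authors.

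Counts of all 9 libraries were fitted in edgeR 4.0.16 (R 4.3.3) with a mean per group, no block, filterByExpr, which kept 21492 genes, TMM scaling and quasi-likelihood F-tests, and p-values were Benjamini-Hochberg adjusted across the kept genes with a threshold of 0.05. Each SE was derived from the log2 change and its F statistic. Mean and SD of FPKM cover the 3 libraries of each group. The likeness ranking used log2 CPM with a prior count of 2. Replicate pairs differed beyond sampling noise (chi-square per degree of freedom 3.88 to 11.0 after division by 4), and none was treated as a repeated library. Alternatives were DESeq2 1.42.0, other scalings, no filter, limma 3.58.1 on log2 FPKM with a pseudocount of 1 or 0.1, counts divided by 4, a replicate block, each library left out, and control replicate 1 alone, assumed to vary like the other groups. The fit was tested on simulated data.

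The members and lists were chosen with earlier results of these data known. A test of SPARC in shJOSD2 against control was run but is not reported, since its control values were known. Named genes were the members, IDH1, JOSD2, the 5 genes most like SPARC, and per list and comparison up to 3 called genes with the largest change, separate FPKM ranges and at least 1 FPKM in a group mean. Marker genes come from fixed lists. RPL7AP6, CLMAT3 and VCAM1 were named after their values were seen. COMP, TNN, POSTN and HTRA4 were listed but not analysed here. Promoter windows are RefSeq's (GRCh38.p14), and figures were drawn with matplotlib 3.10.9.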

Additional observations from a re-analysis of the deposited data

How the results depend on the processing

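In shJOSD2 against control, SPOCK2 and SPOCK3 were called under all 18 alternatives and SMOC1 under 17, all but that with control replicate 1 alone. The SPARC log2 difference in shIDH1 against control was 3.90 with limma on log2(FPKM + 1) and 4.71 against control replicate 1 alone. Against shJOSD2 it was 4.10 without TMM factors, 3.42 with limma at a pseudocount of 1 and 4.03 at 0.1. Without TMM factors and with limma at 1 and 0.1, small changes in shJOSD2 against control took the other sign, to 0.028, 0.018 and 0.022 for SPOCK1 and to 0.11, 0.057 and 0.11 for FSTL1. FSTL1 ranged from -0.19 to 0.062 when 1 library was left out. Between the hairpins, SPOCK3 was at 0.014 with DESeq2 and 0.014 with its size factors in edgeR, and with 1 library left out it ranged from -0.17 to 0.077, and SPOCK1 from -0.13 to 0.051. The cause was not tested.

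Of the members other than SPARC, 2 were called between the hairpins, against 1 without the low-count filter and 1 to 3 with 1 library left out. It was 1 when shIDH1 replicate 1, shIDH1 replicate 2, shJOSD2 replicate 1 or shJOSD2 replicate 3 was left out. Without TMM factors and with limma at 1 and 0.1 the count stayed at 2, but the members changed. FSTL1 was no longer called there, and SPOCK2 was called lower in shIDH1. For the follistatin-like and Kazal-type genes that count was 5, against 3 without TMM factors, 3 with limma at 1, 3 with limma at 0.1 and 3 to 5 with 1 library left out. Without TMM factors the calls among all genes in shJOSD2 against control split into 5638 higher and 2934 lower, where the TMM fit gave 3907 and 4330. Between the hairpins the split was 3316 higher and 6653 lower, where the TMM fit gave 4479 and 5156.

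Libraries with the same replicate number did not deviate together: the correlations of their deviations lay between -0.018 and 0.038. They share only a number. With the replicate number as a block, 1 member other than SPARC was called between the hairpins, and calls over all genes went from 10769 to 10416, from 8237 to 7823 and from 9635 to 9296 in the 3 comparisons. Depth limits SPARCL1 and SMOC2 most, which rest on few counts. The called members SPOCK2, SPOCK3 and SMOC1 also had low counts in control libraries, at 49 to 97, 55 to 81 and 90 to 106. With about 4 counts per fragment, they would rest on fewer fragments than that.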
